A study of Mus musculus with 24 samples.

Results

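The genes described here are Nfe2l2, which encodes the transcription factor NRF2, and 9 genes that NRF2 is known to induce: Hmox1, Srxn1, Txnrd1, Gclc, Gclm, Slc7a11, Nqo1, Abcc4 and Osgin1. They were taken by gene name from the 3 deposited tables and make up 10 of the 27802 genes measured. Of the 10, 9 passed the filter on low counts that left 20213 genes for testing, and Slc7a11 did not. The values are from mouse liver, measured by RNA sequencing of poly-A RNA in 24 libraries. The glutathione transferases, which NRF2 also induces, are not members and appear below only as a comparison list.

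NRF2 is held at a low level in resting cells by KEAP1, an adaptor that directs it to ubiquitin ligase and degradation. Oxidants and electrophiles modify cysteines of KEAP1, NRF2 then builds up, and with small MAF proteins it binds antioxidant response elements in DNA. BACH1, a repressor released from DNA by heme, competes for the same elements, above all at Hmox1. In liver this system governs glutathione synthesis, the reduction of thioredoxin, quinone and heme breakdown, and the export of conjugates, so its targets are used as a readout of oxidative or electrophilic load.

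The study asked how loss of AgRP neurons of the hypothalamus that express the angiotensin receptor AT1R acts on the body. Adult mice that carried Cre under a BAC-AT1A promoter received, into the arcuate nucleus, an adeno-associated virus with a caspase 3 switched on by Cre. From surgery they lived at 22 °C, which is cool for a mouse, or at 30 °C, which is near thermoneutral, on 2029x Teklad diet. Livers were frozen after 2 weeks. The groups were ablated mice at 22 °C (3 females and 3 males), control mice at 22 °C (3 females and 3 males), ablated mice at 30 °C (3 females and 3 males) and control mice at 30 °C (4 females and 2 males).

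All 12 mice at 22 °C were of the Ai39 x BAC-AT1A-Cre line and Halo+/-. The ablated mice at 30 °C were 3 of that line, 2 Ai9 x BAC-AT1A-Cre mice (male 2, R+/+, and female 3, R+/-) and 1 BAC-AT1A-Cre mouse without a reporter named (male 3). The control mice at 30 °C were 4 of the Ai39 line and 2 BAC-AT1A-Cre mice (male 1 and female 3). Every ablated mouse was Cre+. The controls were Cre- except for male 1 at 22 °C and for female 4 and both males at 30 °C, and the sources used here do not give the controls' injection. In females at 22 °C ablation and Cre status therefore cannot be told apart. Only the injection was local to the arcuate nucleus, and the ablation was not checked in these liver data. The labels number replicates without stating an animal for each, so p-values measure the spread between these libraries.

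Depth was 21691653 to 34851108 reads in genes per library. The hepatocyte markers summed to 77837.7 to 104720 CPM (read counts per library size, scaled with TMM) in ablated livers at 22 °C, against 66104 to 106743 CPM in controls, and 0 of 9 were without reads, so the tissue label held. The mitochondrial genome supplied 7.53% to 37.3% of reads in genes. The highest share was in control female 3 at 22 °C, which also had the lowest hepatocyte sum, 66104 CPM. Its squared differences from the other control females there were 247 and 379 times the counting variance (chi-square per degree of freedom). At 30 °C control male 1 stood apart, with 13601 genes at 10 or more reads, against 14898 to 16682 in the other libraries, and the values that leaving it out moves most are given below without it. Ablated female 3 at 30 °C had the lowest mitochondrial share, 7.53%, with monocyte and neutrophil markers at 53.2 CPM, against 5.38 to 14.7 CPM in the other ablated livers at 30 °C.

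NRF2 acts through a short DNA core, TGACNNNGC, and the stretches around it are shown because the comparisons below are of genes grouped by this regulator. Promoter windows were those of RefSeq on GRCm38.p6, 250 bases before to 50 bases after a start, a build that differs from the GRCm39 of the expression tables. The table held 8 of the 10 genes, with 11 windows. The core, searched on both strands, was in 6 windows of 5 genes. It was in 12.4% of all 32851 windows and 13.991% of the 27025 genes. Each stretch reads 5′ to 3′ on the strand of its gene, with the core in capitals, on the opposite strand as GCNNNGTCA. The AP-1 site TGACTCA shares the letters TGAC, and 0 of the 6 cores shown hold it.
Nfe2l2 (chr2:75704850-75704913, - strand, core on the strand of the gene): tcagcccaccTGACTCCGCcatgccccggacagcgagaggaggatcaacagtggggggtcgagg
Srxn1 (chr2:152105542-152105570, + strand, core on the opposite strand): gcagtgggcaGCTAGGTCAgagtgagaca
Gclm (chr3:122245378-122245476, + strand, core on the opposite strand): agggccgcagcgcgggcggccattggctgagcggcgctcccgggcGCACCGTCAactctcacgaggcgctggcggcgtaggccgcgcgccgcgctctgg
Txnrd1 (chr10:82859069-82859167, + strand, core on the opposite strand): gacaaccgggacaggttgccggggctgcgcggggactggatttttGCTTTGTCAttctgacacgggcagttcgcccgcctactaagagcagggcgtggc
Abcc4 (chr14:118706220-118706289, - strand, core on the opposite strand): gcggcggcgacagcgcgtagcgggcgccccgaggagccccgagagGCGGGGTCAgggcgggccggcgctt
Abcc4, second start (chr14:118676932-118676999, - strand, core on the strand of the gene): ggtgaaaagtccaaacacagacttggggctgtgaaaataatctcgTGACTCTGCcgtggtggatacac
Counted from the transcription start, the cores began at base -240 in Nfe2l2, -134 in Gclm, -92 in Txnrd1, and -25 and -23 in the 2 Abcc4 windows. The Srxn1 core lay inside the transcribed part, from base 29 to base 37. The windows of Nqo1, Osgin1 and Slc7a11 did not hold these letters, nor did the Txnrd1 windows of the starts at 82833951 and 82860341. Hmox1 and Gclc had no window and were not searched. A match describes the sequence and was not tied to binding, which was not measured.

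Levels set the scale for what follows. Per gene length, Osgin1 was the most abundant member, at 84.4 ± 41.9 FPKM (SD, n = 24 libraries, as for each level here), and Nfe2l2 followed at 56.6 ± 20.4 FPKM. Among 9549 protein-coding genes with a mean of 1 FPKM or more, 95.04% lay below Osgin1 and 93.0% below Nfe2l2. Both subunits of glutamate-cysteine ligase were also high, with 46.1 ± 12.2 FPKM for Gclc and 25.2 ± 4.67 FPKM for Gclm. Txnrd1 stood at 12.4 ± 1.15 FPKM and Srxn1 at 9.38 ± 2.61 FPKM. Nqo1, at 5.01 ± 2.33 FPKM, and Hmox1, at 3.95 ± 1.94 FPKM, were near the middle of expressed genes, with 49.7% and 42.2% below them. Abcc4 was at the low end with 0.534 ± 0.590 FPKM.

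Neighbours in this order were often close. Osgin1 exceeded Nfe2l2 in 20 of 24 libraries and Nfe2l2 exceeded Gclc in 16. Nqo1 exceeded Hmox1 in 18 of 24. The ranges over libraries did not overlap only between Gclm and Txnrd1 and between Abcc4 and Slc7a11. Slc7a11, the cystine importer xCT, had 3 reads in all, every one of them in ablated male 2 at 22 °C, and 0 reads in the other libraries. At this depth a difference in Slc7a11 was not detectable.

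**Figure D1:**
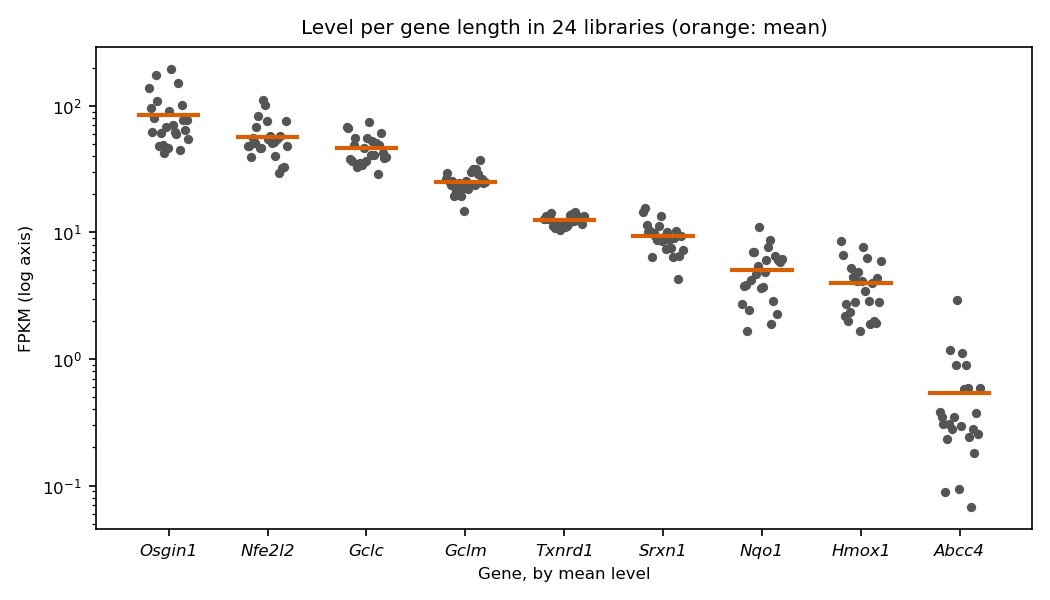
Level of 9 genes in 24 libraries (points, FPKM, log axis), ordered by mean (orange bar). The means span 84.4 FPKM for Osgin1 to 0.534 FPKM for Abcc4, and Abcc4 spreads most and Txnrd1 least.

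Members also differed in how steady they were. Txnrd1 varied least, with a highest library 1.43 times the lowest, at 106 and 74.1 CPM. Gclc and Gclm spanned 2.50 and 2.54 times. Srxn1 spanned 3.66 times, or 2.43 times without control male 1 at 30 °C, and Nfe2l2 3.72 times. Osgin1 spanned 4.60 times, Hmox1 5.29 times, Nqo1 6.73 times and Abcc4 42.2 times. These spans include differences between groups as well as between mice of a group.

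At 22 °C several members were higher after ablation, and none passed the test over all genes. Abcc4, Hmox1 and Srxn1 were the members with an unadjusted p under 0.05, all higher in ablated livers, by 3.34, 1.96 and 1.41 times. Called genes here are those with an adjusted p under 0.05 in edgeR's quasi-likelihood test, adjusted over all genes by Benjamini and Hochberg. By that rule 0 of 9 members were called, against 0.094% of all genes (19 genes). At an unadjusted p under 0.05, 3 of 9 members were higher and 0 lower, against 4.18% and 4.16% of all genes. The median log2 fold change was 0.23 over the 9 members and 0.02 over all genes. Positive values were found for 7 of 9 members and for 52.8% of all genes.

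**Figure D2:**
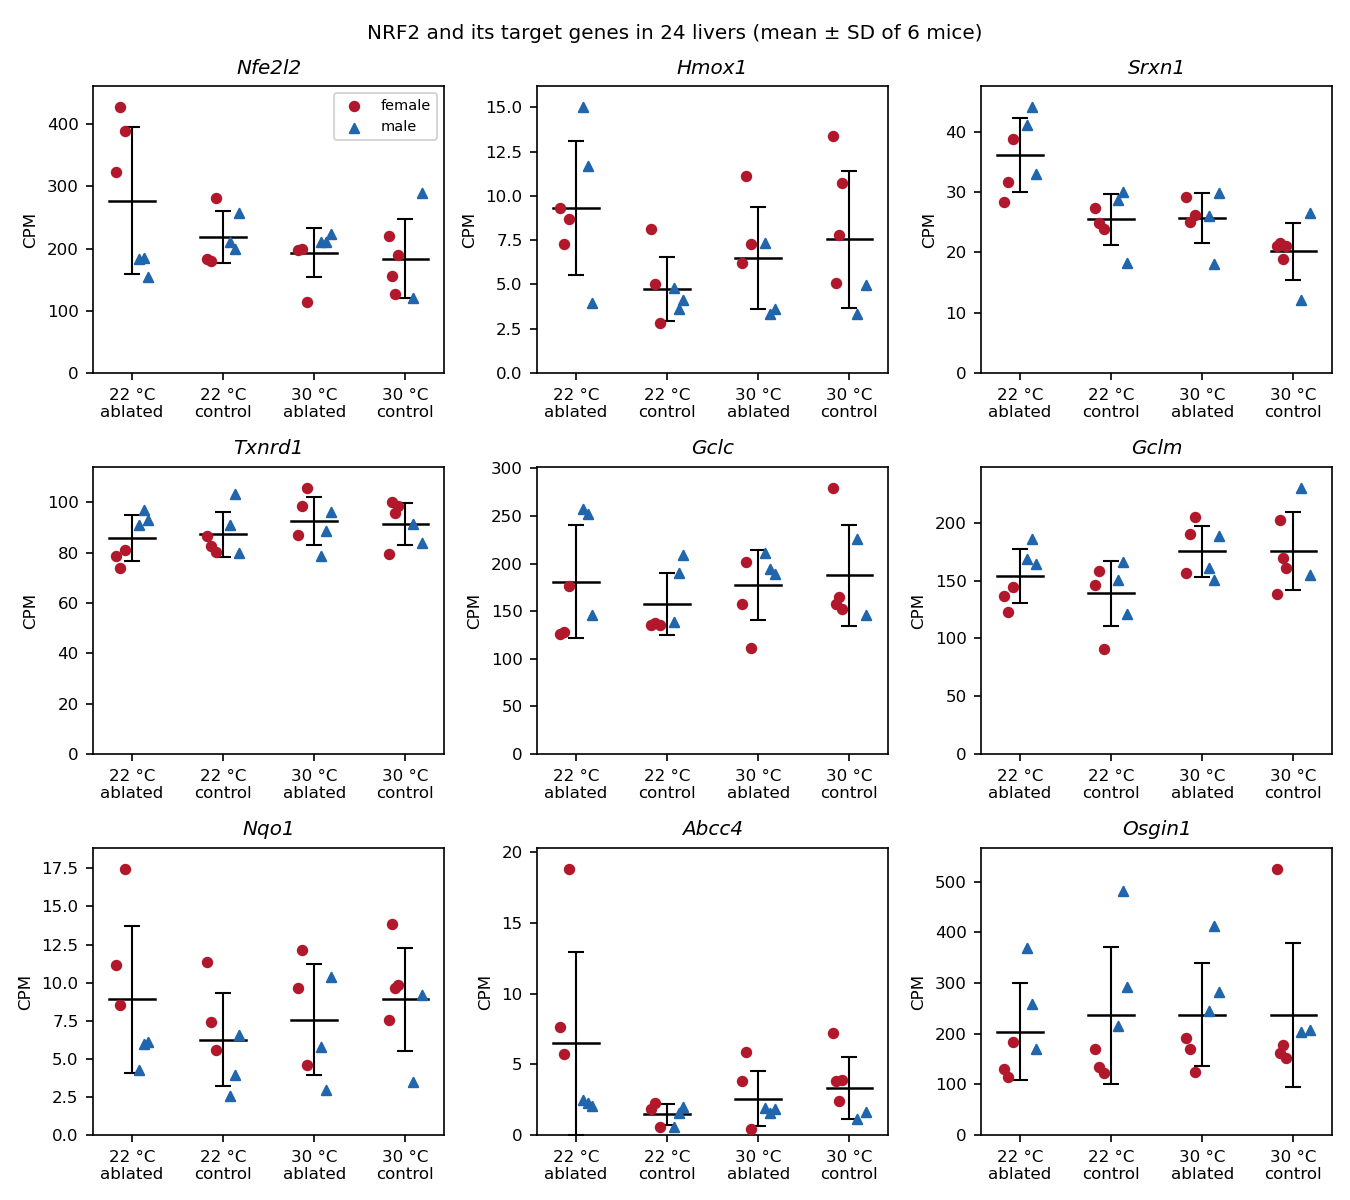
Level of 9 genes (CPM) in the 4 conditions, with females as red circles, males as blue triangles, and bars for mean ± SD of 6 libraries. At 22 °C Abcc4 was 5.73 to 18.8 CPM in ablated females and at most 2.45 CPM in every other liver at that temperature, and Srxn1 was 28.4 to 44.0 CPM in ablated livers against 18.2 to 30.0 CPM in controls.

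Nfe2l2 (chr2:75505857-75534985 on GRCm39, - strand), the gene of NRF2 itself, had opposite directions in the sexes at 22 °C. Ablated females had 323, 427 and 389 CPM, against 184, 180 and 281 CPM in control females. Ablated males had 183, 184 and 153 CPM, against 211, 199 and 257 CPM in control males. All ablated females were thus above all control females, and all ablated males below all control males. The share of all genes with such a separation within a sex was not counted. The log2 fold change was 0.82 ± 0.25 (SE) in females, with an adjusted p of 0.506 in edgeR, and -0.36 ± 0.25 in males, with an adjusted p of 0.732. The difference, females minus males, was 1.18 ± 0.36 on the log2 scale, with an unadjusted p of 0.00249 and an adjusted p of 0.480 in edgeR. Every control female at 22 °C was Cre- and every ablated female Cre+, while control male 1 was Cre+. So in females ablation and Cre status cannot be told apart, and the difference between the sexes holds this limit. Over both sexes the log2 fold change was 0.23 ± 0.18, with an adjusted p of 0.798 in edgeR, and 0.35 without control female 3.

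The difference between sexes in the response to ablation, tested for every gene, called 0.0% of genes and 0 of 9 members at 22 °C. At an unadjusted p under 0.05, 2 members were higher in females, Nfe2l2 and Abcc4, against 3.22% of all genes, and 0 were lower, against 3.04%. Without ablated female 3, Abcc4 had an unadjusted p of 0.170 in edgeR. At 30 °C the log2 fold change of Nfe2l2 was -0.02 ± 0.24 in females and 0.07 ± 0.28 in males, a difference of -0.09, which was 0.41 without control male 1 and -0.86 without control male 2. Several marker lists moved with this difference between the sexes, none with a called gene. Of the erythroid markers all 6 were positive (median 2.54) and 5 had an unadjusted p under 0.05. Their sum was 463, 883 and 337 CPM in ablated females and 147, 137 and 137 CPM in ablated males, against 261 to 517 CPM in the 6 controls, so ablated and control females overlapped. Positive values were also found for 13 of 13 mitochondrially encoded genes (median 0.66), 11 of 12 macrophage markers (0.62), 0 of 6 cholangiocyte markers (-0.60) and 2 of 9 hepatocyte markers (-0.47). The part of these in the Nfe2l2 values was not tested.

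Hmox1 (chr8:75820249-75827217, + strand) encodes heme oxygenase 1, which splits heme into biliverdin, iron and carbon monoxide. Ablated livers at 22 °C held 9.29, 7.26 and 8.67 CPM in females and 15.002, 11.7 and 3.94 CPM in males. Control livers held 8.11, 5.01 and 2.83 CPM in females and 4.80, 3.60 and 4.10 CPM in males. Of 6 ablated livers, 4 were above every control, and ablated male 3 was below the mean of control males. On the log2 scale the fold change was 0.97 ± 0.30, with an unadjusted p of 0.00299 and an adjusted p of 0.291 in edgeR. It was 0.66 ± 0.42 in females and 1.29 ± 0.43 in males.

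In liver, Hmox1 is known to be carried largely by macrophages, and macrophage markers varied beside it. The 12 Kupffer cell and macrophage markers summed to 95.8 to 379 CPM in ablated livers at 22 °C and to 201 to 252 CPM in controls. All 12 had a positive log2 fold change (median 0.38), 0 of 12 were called, 1, Marco, had an unadjusted p under 0.05, and none was without reads in the group. The lowest sum, 95.8 CPM, was in ablated male 3, the ablated liver with the lowest Hmox1. The 7 monocyte and neutrophil markers summed to 6.92 to 22.7 CPM in ablated livers and 6.97 to 10.5 CPM in controls, with ablated male 3 again lowest among ablated livers. Stellate cell and fibroblast markers summed to 161 to 338 CPM in ablated livers and 112 to 189 CPM in controls, with 8 of 8 positive (median 0.45) and 0 called. Of 7 endothelial markers 6 were positive (median 0.24) and of 7 lymphocyte markers 5 (median 0.31), with 0 called in either list. The part of these cells in the Hmox1 values was not tested, and in bulk tissue fewer cells of a type and less RNA per cell cannot be told apart. Without ablated male 3 the Hmox1 difference was 1.17, with an adjusted p of 0.0759 in edgeR. That was the lowest adjusted p of the 12 fits that left out 1 library. Over these fits the value was 0.78, without ablated male 1, to 1.19, with adjusted p of up to 0.686 in edgeR. With no filter on low counts, where 400 genes were called, the adjusted p of Hmox1 was 0.0237. With Cre status as a further term 0 genes were called, so Hmox1 was not. Over the alternative settings its log2 fold change was 0.72 to 0.98.

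Srxn1 (chr2:151947436-151953296, + strand) encodes sulfiredoxin, which restores peroxiredoxins that peroxide has over-oxidised. Ablated livers at 22 °C had 28.4, 31.7 and 38.8 CPM in females and 41.1, 44.0 and 32.9 CPM in males. Control livers had 27.3, 24.9 and 23.8 CPM in females and 28.7, 30.0 and 18.2 CPM in males. All 6 ablated livers were above the control mean of their sex, and 5 were above every control. The log2 fold change was 0.50 ± 0.16, with an unadjusted p of 0.00469 and an adjusted p of 0.333 in edgeR. It was 0.38 ± 0.23 in females and 0.62 ± 0.23 in males. Srxn1 thus differed by less than Abcc4 and Hmox1 but with a smaller error.

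Txnrd1 (chr10:82669785-82733546, + strand) encodes the cytosolic reductase that keeps thioredoxin in its reduced form. It was at 74.1 to 96.9 CPM in ablated livers at 22 °C (median 86.1) and 80.0 to 103 CPM in controls (median 84.6). The groups overlapped almost fully, and the log2 fold change was -0.03 ± 0.11, with an adjusted p of 0.9999 in edgeR. The gene overlaps Eid3 on its own strand and Gm38560 and Gm47073 on the other, and the sources used here do not say whether counting used strand.

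Gclc (chr9:77661817-77701767, + strand) and Gclm (chr3:122039206-122064381, + strand) encode the catalytic and the modifier subunit of glutamate-cysteine ligase, which makes the precursor of glutathione. Gclc was at 126 to 257 CPM in ablated livers at 22 °C (median 161), against 135 to 208 CPM in controls (median 138). Its highest ablated values were those of males 1 and 2, at 257 and 252 CPM. On the log2 scale the fold change was 0.18 ± 0.17, with an adjusted p of 0.870 in edgeR. Gclm was at 123 to 186 CPM in ablated livers (median 154), against 90.7 to 166 CPM in controls (median 148). Its log2 fold change was 0.14 ± 0.14, with an adjusted p of 0.890 in edgeR, and 0.031 without control female 3. With Cre status as a further term, which few controls inform, Gclc was at 0.57 with an adjusted p of 1.0. Gm17494 overlaps Gclm on the other strand.

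Nqo1 (chr8:108114857-108129838, - strand) encodes a quinone reductase and is a widely used NRF2 marker. Ablated females at 22 °C had 11.2, 8.501 and 17.4 CPM, against 11.3, 7.41 and 5.58 CPM in control females. Ablated males had 4.28, 5.94 and 6.09 CPM, against 2.59, 3.94 and 6.57 CPM in control males. The groups overlapped in both sexes, and 1 ablated liver, female 3, was above every control. The log2 fold change was 0.46 ± 0.31, with an adjusted p of 0.741 in edgeR, and 0.87 with the Cre term.

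Abcc4 (chr14:118720104-118943631, - strand) encodes MRP4, an exporter of bile acids, cyclic nucleotides and conjugates on the blood side of the hepatocyte. Ablated females at 22 °C had 7.63, 5.73 and 18.8 CPM, against 1.87, 2.27 and 0.585 CPM in control females. Ablated males had 2.45, 2.23 and 2.02 CPM, against 0.572, 1.53 and 1.96 CPM in control males. All ablated livers were above all controls of their sex. As for Nfe2l2, the share of all genes separated in this way was not counted. On the log2 scale the fold change was 1.74 ± 0.46, with an unadjusted p of 0.000591 and an adjusted p of 0.155 in edgeR. It was 2.76 ± 0.66 in females, with an adjusted p of 0.190, and 0.73 ± 0.64 in males, with an adjusted p of 0.839. Here too every control female was Cre- and every ablated female Cre+, so ablation and Cre status cannot be told apart in females.

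The Abcc4 response in females minus that in males was 2.03 ± 0.90 on the log2 scale, with an unadjusted p of 0.0311 and an adjusted p of 0.774 in edgeR, and 1.35 without ablated female 3. Over the fits that left out 1 library, its unadjusted p in edgeR ran from 0.0143 to 0.170. The lowest was without control male 1 and the highest without ablated female 3. Without control female 3 it was 0.0841. Without ablated female 3 the difference over both sexes was 1.40, with an adjusted p of 0.633 in edgeR. With DESeq2, which called 130 genes, Abcc4 had an adjusted p of 0.0323, and with no filter on low counts one of 0.00229. With Cre status as a further term 0 genes were called, so Abcc4 was not. Over the alternative settings its log2 fold change for ablation at 22 °C was 1.74 to 2.42. Abcc4 rested on 13 to 566 reads per library, and Gm23302 and Gm49033 overlap it on the other strand. Cholangiocyte markers summed to 57.0 to 245 CPM in ablated livers at 22 °C, against 56.7 to 90.3 CPM in controls. All 6 had a positive log2 fold change (median 0.82), 0 of 6 were called, and 1, Spp1, had an unadjusted p under 0.05. They were high in ablated males 1 and 2 and female 3, at 212, 245 and 213 CPM, while Abcc4 was high in all 3 ablated females. Their part in its values was not tested.

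Osgin1 (chr8:120160863-120172995, + strand) encodes an oxidative stress induced growth inhibitor. It was at 114 to 369 CPM in ablated livers at 22 °C (median 176), against 122 to 482 CPM in controls (median 192). The groups overlapped widely, and the log2 fold change was -0.15 ± 0.30, with an adjusted p of 0.985 in edgeR. With the Cre term the value was 0.61, and 0 genes were then called.

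Other genes of the same biology were read from lists, again at 22 °C. Of 13 NRF2 regulators, which include Keap1, Bach1 and the small MAF genes, 0 were called and the median log2 fold change was -0.05. Bach1 had the lowest p of them, at 0.26 ± 0.12 with an adjusted p of 0.589 in edgeR. Of 13 tested other NRF2 target enzymes, 1 rose and 0 fell, with a median of 0.26. The gene that rose was Ugdh, which makes UDP-glucuronate, at 82.1 to 181 CPM in ablated livers against 46.5 to 96.6 CPM in controls, a log2 fold change of 0.84 ± 0.17 with an adjusted p of 0.0334. Htatip2 and Ephx1, an epoxide hydrolase, followed at 0.50 ± 0.14 and 0.39 ± 0.14, with adjusted p of 0.200 and 0.389 in edgeR.

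Among 22 tested glutathione transferases, 2 rose and 0 fell, and 19 had a positive value (median 0.30). They were Gsta2, at 23.5 to 81.4 CPM in ablated livers against 4.68 to 16.6 CPM in controls, and Gsta1, at 3.21 to 52.9 CPM in ablated livers against 0 to 1.15 CPM. Gsta1 and Gsta2 are close paralogs whose reads counting could have split. Of the transferases that did not pass, Gstm1 had the lowest p, at 0.64 ± 0.15 with an adjusted p of 0.101 in edgeR. So at 22 °C 1 of 13 other target enzymes, 2 of 22 transferases and 0 of 9 members were called. Over all genes the share was 0.094%. Ugdh, Gsta1 and Gsta2 are named because they were called, and members and lists were chosen with earlier results known. The difference between the lists and the members was not tested. With Cre status as a further term 0 genes were called in all, so none of these calls held there.

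The remaining redox lists held no called gene at 22 °C. For 18 genes of glutathione synthesis and use, 16 of thioredoxin and peroxiredoxin, 8 of superoxide and peroxide removal, 13 of NADPH supply and 16 of heme and iron handling, the medians were 0.06, 0.03, 0.08, 0.10 and 0.05 on the log2 scale. In the heme list Alas1, the rate-limiting enzyme of heme synthesis, had -0.82 ± 0.34 and an adjusted p of 0.528 in edgeR. The ferritin genes Fth1 and Ftl1 had 0.36 ± 0.18 and 0.31 ± 0.15, with adjusted p of 0.596 and 0.592. Of NADPH suppliers, Idh2 had the lowest p, at 0.52 ± 0.16 with an adjusted p of 0.289. Of 15 ATF4 targets, which answer amino acid and protein folding stress, 0 were called and the median was 0.26. Of 12 other transporters, which include the ABCC family and the bile acid exporters, 0 were called and the median was 0.12.

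At 30 °C the log2 fold change for ablation lay within its SE of 0 for every tested member but Srxn1. The test called 0 of 9 members and 0.0% of all genes, and the median log2 fold change was -0.01 over members and 0.05 over all genes. Of 9 members 4 were positive, against 57.1% of all genes. Srxn1 was the member with an unadjusted p under 0.05, against 5.07% of all genes higher and 1.89% lower.

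Srxn1 at 30 °C had 29.1, 24.97 and 26.1 CPM in ablated females and 26.0, 18.1 and 29.8 CPM in ablated males. Controls had 21.1, 21.5, 18.9 and 21.03 CPM in females and 12.03 and 26.4 CPM in males. Every ablated female was above every control female, and the males overlapped. How many of all genes were separated in females here was not counted. The log2 fold change was 0.36 ± 0.17, with an unadjusted p of 0.0396 and an adjusted p of 0.700 in edgeR. It hung on the control males: without control male 1 it was 0.15, with an adjusted p of 0.963, and without control male 2 it was 0.71, with an adjusted p of 0.0167. In the fit without control male 2 the test called 807 genes, with control male 1 as the lone control male.

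Hmox1 and Abcc4, the members farthest above control at 22 °C, had log2 fold changes near 0 at 30 °C as averages over both sexes. Their SE were wide, so equal levels were not shown. Hmox1 was at 3.33 to 11.1 CPM in ablated livers (median 6.74) and 3.32 to 13.4 CPM in controls (median 6.44), a log2 fold change of 0.01 ± 0.31. Abcc4 was at 0.445 to 5.87 CPM in ablated livers (median 1.88) and 1.15 to 7.19 CPM in controls (median 3.13), a log2 fold change of -0.01 ± 0.48. By sex, Abcc4 had -0.36 ± 0.58 in females and 0.35 ± 0.72 in males. Hmox1 had -0.18 ± 0.39 in females and 0.20 ± 0.48 in males. Nfe2l2 was at 115 to 224 CPM in ablated livers and 121 to 288 CPM in controls, with 0.03 ± 0.18. The other 5 members had log2 fold changes of -0.11 to 0.03, with SE of 0.11 to 0.32. Of the redox lists above, 0 genes were called for ablation at 30 °C.

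Whether ablation acted differently at the 2 temperatures was tested directly. The test called 0 of 9 members and 0.0% of all genes. Abcc4 differed by 1.75 ± 0.64 on the log2 scale, 22 °C minus 30 °C, with an unadjusted p of 0.0104 and an adjusted p of 0.626 in edgeR. Hmox1 differed by 0.96 ± 0.43, with an unadjusted p of 0.0328 and an adjusted p of 0.683. These 2 members are set against 2.48% of all genes higher and 4.51% lower at an unadjusted p under 0.05. For Srxn1 the difference was 0.13 ± 0.23, so its values at the 2 temperatures lay within the error of each other.

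**Figure D3:**
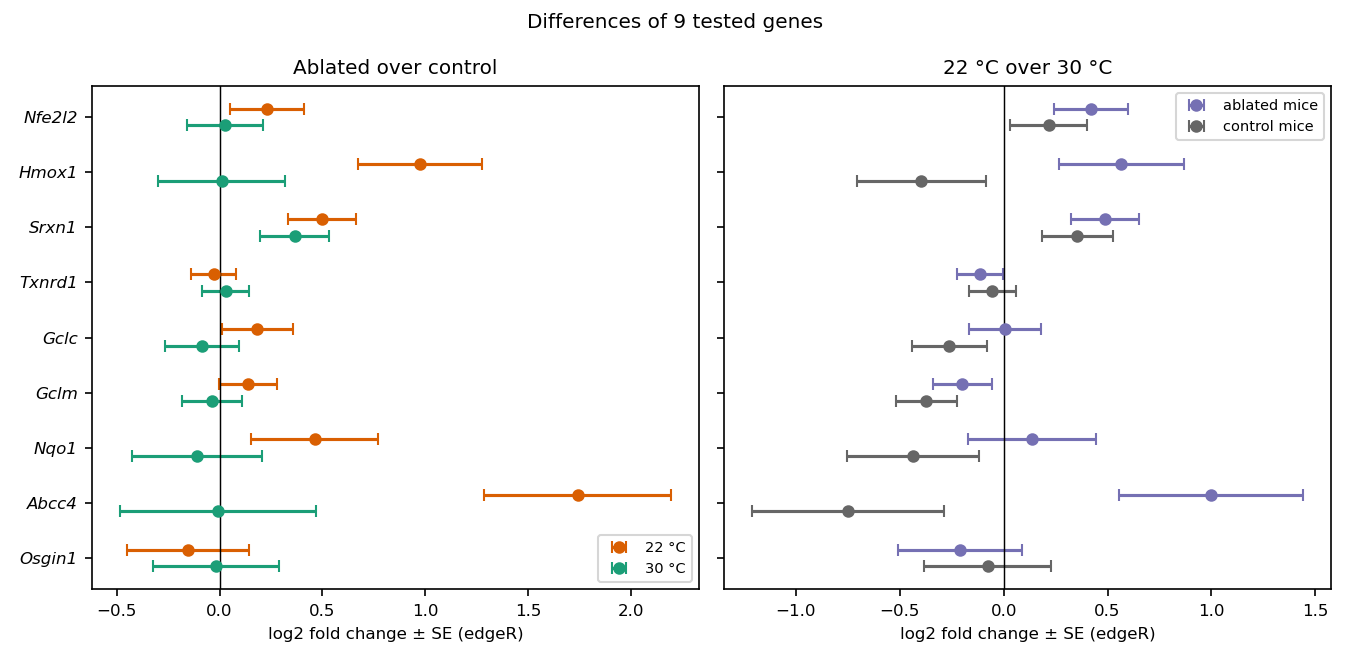
Log2 fold changes ± SE of 9 genes, with ablated over control at 22 °C and 30 °C at left and 22 °C over 30 °C in ablated and control mice at right. Abcc4 (1.74) and Hmox1 (0.97) lie farthest from 0 for ablation at 22 °C, and their values at 30 °C lie at -0.01 and 0.01.

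At 30 °C Osgin1 had a negative log2 fold change in females, which rested on 1 control liver, and a positive one in males. Ablated females had 192, 171 and 124 CPM, against 524, 163, 177 and 152 CPM in control females. Ablated males had 245, 412 and 282 CPM, against 203 and 208 CPM in control males. The males did not overlap, and in females control female 1 stood far above the other 6 livers, which overlapped. How many of all genes were separated in males here was not counted. The response in females minus that in males was -1.25 ± 0.62, with an unadjusted p of 0.0591 and an adjusted p of 0.751 in edgeR. Without control female 1 it was -0.62, with an adjusted p of 0.884, and the value over both sexes was 0.30. For this difference at 30 °C the test called 0 of 9 members and 0.0% of all genes.

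Housing at 22 °C instead of 30 °C was compared in ablated and in control mice. At 22 °C all mice were of 1 line and at 30 °C the lines were mixed. In ablated mice 0 of 9 members were called, against 0.0346% of all genes (7 genes). At an unadjusted p under 0.05, 3 members were higher at 22 °C, Srxn1, Nfe2l2 and Abcc4, against 5.02% of all genes, and 0 were lower, against 4.76%. The median was 0.14 over members and 0.00 over all genes. Marker lists moved with temperature in ablated mice as well, with 0 genes called. Positive values were found for 8 of 8 stellate cell and fibroblast markers (median 0.87), 7 of 7 endothelial markers (0.55), 13 of 13 mitochondrially encoded genes (0.55) and 1 of 6 erythroid markers (-0.76). Their part in the values of the members was not tested.

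In ablated mice Srxn1 was at 28.4 to 44.0 CPM at 22 °C (median 35.9) and 18.1 to 29.8 CPM at 30 °C (median 26.1). Of 6 livers at 22 °C, 5 were above every liver at 30 °C. On the log2 scale the fold change was 0.49 ± 0.16, with an unadjusted p of 0.00551 and an adjusted p of 0.318 in edgeR. Nfe2l2 was at 153 to 427 CPM at 22 °C (median 254), against 115 to 224 CPM at 30 °C (median 205), a log2 fold change of 0.42 ± 0.18 with an adjusted p of 0.438. Its 3 livers above the 30 °C range were the females at 22 °C. Abcc4 had a log2 fold change of 1.00 ± 0.44, with an adjusted p of 0.456, and Hmox1 one of 0.57 ± 0.30, with an adjusted p of 0.541 in edgeR.

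In control mice 0 of 9 members were called, against 0.0346% of all genes (7 genes), and most members leaned to the warm side. Of 9 members 2 had a positive value, Srxn1 and Nfe2l2, against 54.4% of all genes, and the median was -0.26 over members and 0.05 over all genes. Over members it was -0.080 without control male 1 at 30 °C and -0.078 without control male 2. At an unadjusted p under 0.05, 1 member was higher at 22 °C, Srxn1, against 8.06% of all genes, and 1 lower, Gclm, against 4.57%. Gclm was at 90.7 to 166 CPM at 22 °C (median 148), against 138 to 230 CPM at 30 °C (median 165). All 6 control livers at 22 °C were below the 30 °C mean of their sex. The log2 fold change was -0.37 ± 0.15, with an adjusted p of 0.315 in edgeR. It was -0.21 without control male 1 at 30 °C, with an unadjusted p of 0.205, and -0.49 without control male 2, with an adjusted p of 0.0529.

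Srxn1 in controls was at 18.2 to 30.0 CPM at 22 °C (median 26.1), against 12.03 to 26.4 CPM at 30 °C (median 21.05). The log2 fold change was 0.35 ± 0.17, with an adjusted p of 0.384 in edgeR. It was 0.13 without control male 1 at 30 °C and 0.70 without control male 2, with an adjusted p of 0.0123 without control male 2. Nfe2l2 in controls, 0.22 ± 0.18 with an adjusted p of 0.659, was likewise -0.02 without control male 1 and 0.60 without control male 2, with an adjusted p of 0.0443 in that fit, which called 1608 genes. Abcc4, Nqo1 and Hmox1 had -0.75 ± 0.46, -0.43 ± 0.32 and -0.40 ± 0.31. Of 13 mitochondrially encoded genes 0 were called for temperature in controls. All 13 had a positive value and 11 an unadjusted p under 0.05 in edgeR, with a median of 0.79 on the log2 scale. The controls at 22 °C include female 3, with a mitochondrial share of 37.3%. The part of these genes in the values of the members was not tested.

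Female and male controls were compared last. None of 9 members was called, against 2.81% of all genes. Nqo1 was at 5.58 to 13.8 CPM in 7 females (median 9.64), against 2.59, 3.94, 6.57, 3.49 and 9.17 CPM in 5 males. Its log2 fold change, females over males, was 0.79 ± 0.33, with an unadjusted p of 0.0216 and an adjusted p of 0.235 in edgeR. Hmox1 was at 2.83 to 13.4 CPM in females (median 7.80), against 4.80, 3.60, 4.10, 3.32 and 4.98 CPM in males, with 0.76 ± 0.32 and an adjusted p of 0.245. These 2 members are set against 9.98% of all genes higher in females and 5.24% lower at an unadjusted p under 0.05.

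Regulators and other targets of NRF2 did differ by sex in controls in this fit. Sex and Cre status were partly confounded there. Both control males at 30 °C and male 1 at 22 °C were Cre+, and all control females but female 4 at 30 °C were Cre-. With a Cre term the 568 calls over all genes became 223, and which of the genes named here stayed called is not given. Bach1 was lower in females, by a log2 fold change of -0.76 ± 0.13 with an adjusted p of 0.000212 in edgeR, and Keap1 was higher, by 0.44 ± 0.13 with an adjusted p of 0.0497. Of 13 other target enzymes 2 were higher in females, the carbonyl reductase Cbr1 (0.96 ± 0.14) and Cyp2a5 (0.93 ± 0.19), and 2 lower, Aox1 (-1.05 ± 0.17) and Ugt2b35 (-0.95 ± 0.25). Of 22 glutathione transferases 1 was higher in females, Mgst3, and 3 lower, Gstp1 (-2.81 ± 0.34), Gstp2 (-2.53 ± 0.43) and Mgst1. Slc3a2, the partner chain of xCT, was higher in females by 0.73 ± 0.18 with an adjusted p of 0.0181 in edgeR. So were Idh2 (0.87 ± 0.17) and the transcription factor Atf5, while the exporter Abcg2 and the erythroid Alas2 were lower in females.

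The members did not vary as a block among mice of a group. With each group's mean taken off, Pearson's r over the 24 libraries was 0.74 between Gclc and Osgin1, 0.71 between Gclm and Txnrd1, 0.64 between Gclc and Abcc4 and 0.61 between Nqo1 and Abcc4. Between Nfe2l2 and Gclm it was -0.73, and between Nfe2l2 and Txnrd1 -0.53. In a group of 2, such as the control males at 30 °C, the deviations from the mean mirror each other. Control males 1 and 2 there had 121 and 288 CPM of Nfe2l2, and 230 and 155 CPM of Gclm. Their part in the r of this pair was not tested. The subunits Gclc and Gclm, whose proteins form 1 enzyme, had an r of -0.04. Hmox1 and Srxn1, both higher on average in ablated than in control livers at 22 °C but not called, had an r of 0.32. These values describe the libraries, which share depth and RNA composition gene by gene, and carry no test.

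**Figure D4:**
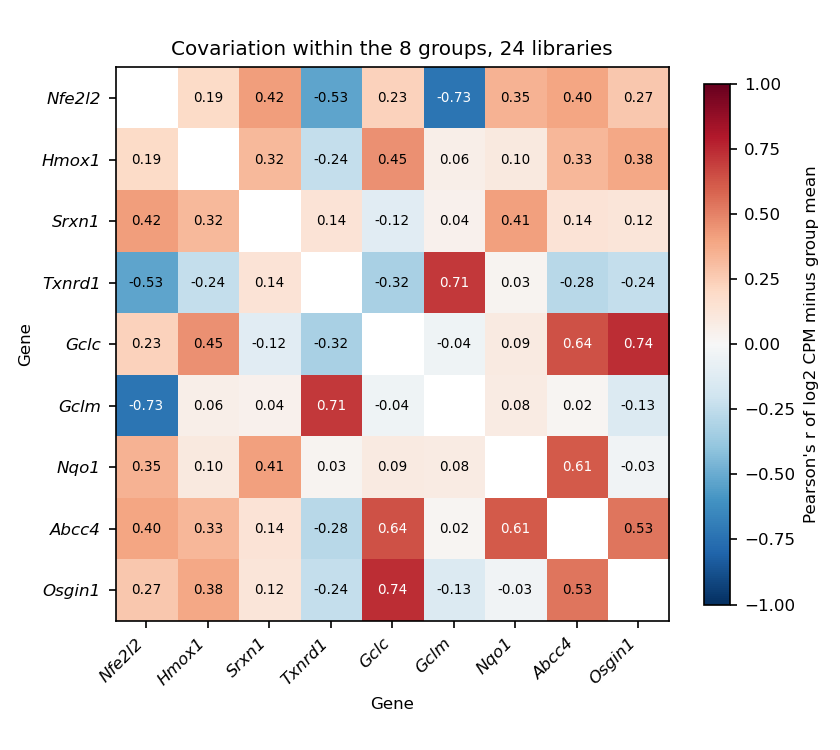
Pearson's r between 9 genes over 24 libraries, from log2 CPM with the mean of each of 8 groups taken off (red positive, blue negative). Gclc with Osgin1 (0.74) and Gclm with Txnrd1 (0.71) are the highest pairs, and Nfe2l2 with Gclm (-0.73) the lowest.

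Over the same libraries each member was set against 10745 protein-coding genes, and the nearest patterns differed between members. For Hmox1 they were Il18bp (r 0.90), Fxyd5 (0.89) and Trpm2 (0.87). For Osgin1 they were Id1 (0.84), Tnfaip2 (0.81) and Egr1 (0.80), and for Abcc4 Adgrv1 (0.88), Cyp4b1 (0.82) and Fyn (0.81). Nfe2l2 was nearest to Sh3glb2 (0.93), Cdk10 (0.91) and Mib2 (0.91), and Srxn1 to Smyd5 (0.85), Dpysl2 (0.84) and Lcp2 (0.84). Gclm was nearest to Cnbp, Lamp2 and Mtpn (0.93, 0.92 and 0.92), and Txnrd1 to Sdhaf4, Ahcyl2 and Atic (0.93, 0.89 and 0.86). Gclc was nearest to Meiob, Apobec1 and Dysf (0.83, 0.78 and 0.78), and Nqo1 to Asap1, Fitm1 and Smarcc2 (0.84, 0.78 and 0.78). Without the 2 libraries farthest from each member's median these values were 0.60 to 0.89, and none of the 27 genes was shared between members.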

How the data were processed

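The deposited counts, raw and whole, come from poly-A libraries of 24 livers, in 3 deposited tables of 12 libraries that share libraries. Per the submitters' processing notes CASAVA, HISAT2, DESeq2 and the build GRCm39 were used. The counter, versions, annotation release and strandedness are absent from the sources used here. The deposited FPKM are the authors' counts scaled to gene length and library size, times a constant per library of 0.889 to 1.16. The deposited signal values, normalised counts, rest on a size factor set within each table, and were not used. The deposited gene length, in bases, is the authors' divisor for FPKM.

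The tables were joined on the gene identifier, and 40326 missing values were set to 0. Values of libraries held by more than 1 table were identical (0 differences). Squared differences between libraries of a group were 25.5 to 379 times the counting variance (chi-square per degree of freedom), so no counting intervals are given. filterByExpr (minimum count 10) left 20213 genes. edgeR 4.0.16 (TMM, robust quasi-likelihood F test, two-sided) was fitted to 8 group means in all 24 libraries, with 16 residual degrees of freedom, and p was adjusted over all genes. Each SE was taken as the absolute log2 fold change divided by the root of F. Effects are averages over both sexes unless a sex is named. The script was tested on simulated data. Within-group correlations used log2 CPM with a prior count of 2.

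All 10 members were named in each comparison. From the 19 gene lists the rule named called genes and those of lowest p for ablation at 22 °C, and for each member the 3 protein-coding genes with the highest within-group r. Members and lists were chosen with earlier results of these data known. The 10 alternatives were DESeq2 1.42.0, its size factors, limma voom 3.58.1, no filter, no mitochondrial genes, no sex term, a Cre term, a replicate block, only the groups compared and only the Ai39 line, and each library was left out in turn.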

Additional observations from a re-analysis of the deposited data

Results flagged for a closer look

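Single libraries stood apart from the rest of their group in 6 of the 46 groups of 4 or 6 libraries checked over the 10 genes, where chance flags about 1 in 20. The share is no fair match for that rate, since Osgin1 of 1 liver counts in a group and in its female subgroup and Slc7a11 had reads in 1 liver only. At 30 °C control female 1 had 524 CPM of Osgin1, against 152 to 208 CPM in the other controls and 152 to 177 CPM in the other control females. The same liver had 279 CPM of Gclc, against 153 to 164 CPM in the other control females. At 22 °C ablated female 3 had 18.8 CPM of Abcc4, against 2.02 to 7.63 CPM in the other ablated livers. Ablated male 2 at 22 °C had 0.126 CPM of Slc7a11, which was 3 reads, against 0 in the other ablated livers. At 30 °C ablated female 3 had 115 CPM of Nfe2l2, against 198 to 224 CPM in the other ablated livers, and this was the liver of lowest mitochondrial share.

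For a pair of genes every ablated female lay on one side of the mean of control females and every ablated male on the other side of that of control males. The share of all genes with this pattern was not counted. For Nfe2l2 at 22 °C the response in females minus that in males was 1.18 on the log2 scale, with an adjusted p of 0.480 in edgeR. For Osgin1 at 30 °C it was -1.25, with an adjusted p of 0.751. The control mean of Osgin1 in females was set by control female 1, and without it the difference was -0.62, with an adjusted p of 0.884 in edgeR.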

How the results depend on the processing

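No member was called in any of the 8 comparisons as reported. Of 182 recomputed counts of called members 174 stayed, and 8 were higher. Of 1080 recomputed log2 fold changes 1003 kept their sign and side of the threshold, 71 turned their sign and 6 passed the threshold. The cause of each change was not tested. Depth limits Abcc4, Hmox1 and Nqo1, whose lowest libraries held 13, 63 and 68 reads, and Slc7a11, which could not be tested. The lines are mixed at 30 °C, most controls are Cre-, and control male 1 at 30 °C is 1 of only 2 control males there.

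For ablation at 22 °C, 19 genes were called, and the count was 0 with a Cre term, 2 with no sex term, 49 with only the groups compared, 130 with DESeq2 and 400 with no filter. DESeq2 called 1 member, Abcc4, and no filter called 2, Abcc4 and Hmox1. For ablation at 30 °C (0 genes), DESeq2 called 37 genes and no filter 74. For the difference between temperatures (0 genes) these were 10 and 191. For the difference between sexes at 22 °C (0 genes) the counts were 1 with limma voom, 42 with only the groups compared, 49 with DESeq2 and 249 with no filter, and at 30 °C (0 genes) they were 35 with DESeq2 and 98 with no filter. No filter called 1 member in each of these differences, Nfe2l2 at 22 °C and Osgin1 at 30 °C. For sex in controls (568 genes) the counts were 331 with only the Ai39 line, 223 with a Cre term, 353 with only the groups compared, 1021 with DESeq2 and 971 with no filter. For temperature in ablated mice (7 genes) they were 1 with no sex term, 18 with limma voom, 51 with only the groups compared, 158 with DESeq2 and 493 with no filter. For temperature in controls (7 genes) they were 3 with only the Ai39 line, 1 with a Cre term, 3 with no sex term, 0 with only the groups compared, 12 with limma voom, 200 with DESeq2 and 273 with no filter.

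Replicate numbers showed no pairing of libraries in the check made: deviations of same-numbered libraries from their group means correlated at -0.0868 to 0.0755 over 11 pairs. The check pools all genes and uses deviations that are tied within small groups, so it cannot show that no pairing exists. With the replicate block, 2 genes were called for the difference between sexes at 22 °C and 1 for temperature in controls, and 0 members were called.

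Signs turned as follows, in log2 fold changes. With only the Ai39 line, ablation at 30 °C gave 0.10 for Abcc4, 0.21 for Gclc, 0.067 for Gclm, -0.18 for Nfe2l2 and -0.036 for Txnrd1. The difference between temperatures was then -0.035 for Gclc, 0.023 for Osgin1 and 0.001445 for Txnrd1. The temperature values were -0.14 for Gclc in ablated mice and -0.084 for Nfe2l2 in controls. With a Cre term, ablation at 30 °C gave 0.27 for Abcc4, 0.091 for Gclc, -0.10 for Hmox1, 0.061 for Nqo1 and 0.34 for Osgin1. Osgin1 was then 0.61 for ablation at 22 °C and 0.27 for the difference between temperatures. With no filter Abcc4 was 0.001319 for ablation at 30 °C and Gclc -0.000771 for temperature in ablated mice. With limma voom Gclc was -0.002614 for temperature in ablated mice, and for ablation at 30 °C Hmox1 was -0.047 and Osgin1 0.058. Hmox1 at 30 °C was -0.006812 with DESeq2, -0.007474 with its size factors and -0.22 with no sex term.

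Leaving out each library in turn gave 12 to 49 called genes for ablation at 22 °C, 0 to 807 for ablation at 30 °C, 0 to 457 for the difference between temperatures, 0 to 5 and 0 to 794 for the difference between sexes at 22 and 30 °C, 316 to 1676 for sex in controls, 2 to 35 for temperature in ablated mice and 0 to 1608 for temperature in controls. The highest counts at 30 °C, for sex and for temperature in controls were those without control male 2 at 30 °C, where control male 1 is assumed to vary like the other groups. Called members numbered 0 to 1 for ablation at 30 °C, 0 to 1 for sex in controls and 0 to 2 for temperature in controls. The ranges that crossed 0 for ablation at 30 °C were -0.34 to 0.25 for Abcc4, -0.22 to 0.10 for Gclc, -0.16 to 0.13 for Gclm, -0.22 to 0.18 for Hmox1, -0.21 to 0.41 for Nfe2l2, -0.38 to 0.33 for Nqo1, -0.14 to 0.30 for Osgin1 and -0.006031 to 0.071 for Txnrd1. For ablation at 22 °C they were -0.31 to 0.037 for Osgin1 and -0.072 to 0.020 for Txnrd1. For the difference between temperatures they were -0.18 to 0.44 for Nfe2l2, -0.45 to 0.056 for Osgin1 and -0.21 to 0.35 for Srxn1. For temperature they were -0.090 to 0.12 for Gclc and -0.035 to 0.41 for Nqo1 in ablated mice, and -0.024 to 0.60 for Nfe2l2, -0.69 to 0.003919 for Nqo1 and -0.27 to 0.24 for Osgin1 in controls. For ablation at 22 °C Abcc4 stayed between 1.40 and 1.93, Hmox1 between 0.78 and 1.19 and Srxn1 between 0.40 and 0.56. Over the same fits Nqo1 was 0.30 to 0.67, Gclc 0.096 to 0.29, Gclm 0.031 to 0.21 and Nfe2l2 0.17 to 0.35.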
